A study of Mus musculus with 8 samples.

Results

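The genes described here form the receiving end of bone morphogenetic protein (BMP) signalling: the receptors Bmpr1a, Bmpr1b, Acvr1 and Bmpr2, the decoy receptor Bambi, the inhibitory Smad Smad6 and the target genes Id1, Id2, Id3 and Id4. They were chosen by gene symbol, and all 10 were on the array, with 25 of its 45037 probe sets and 10 of its 20680 symbols. Total RNA was taken from CH310T1/2 cells, a mouse mesenchymal line in the labels' spelling, kept in micromass culture, a dense spot of cells used to study cartilage formation, and each of 8 RNA samples was hybridised to an Affymetrix whole-genome mouse GeneChip. The 4 groups of 2 arrays were control plasmid on day 0, an Erg-010 plasmid driven by the CMV promoter on day 0, control plasmid on day 1, and an Erg-010 plasmid driven by the Col2 promoter on day 1. Erg is an ETS family transcription factor, and the series title places the work on its part in the fate of cartilage cells at the forming knee joint. Cells of every group, controls included, had been electroporated. Promoter and day changed together, so the contributions of the promoter and of the day cannot be told apart.

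A BMP ligand brings together type II receptors, such as Bmpr2, and type I receptors, such as Bmpr1a, Bmpr1b and Acvr1. The type II kinase activates the type I kinase, which phosphorylates Smad1, Smad5 and Smad9, and these enter the nucleus with Smad4 and switch on target genes. The Id genes and Smad6 are among the best known of these targets. Id proteins lack a DNA-binding region and hold E proteins away from DNA, while Smad6 and Bambi damp the signal. In cartilage, BMP signalling through the type I receptors is needed for condensing mesenchyme to become chondrocytes.

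Values are log2 of the authors' RMA intensities, and differences are log2 differences between group means from limma. A probe set was called at a Benjamini-Hochberg adjusted p under 0.05 over all 45037 probe sets. Separate cultures are not mentioned in the labels, so the spread that p-values measure may be technical, and with 2 arrays a group precision is low. Array medians lay between 6.59 and 6.70. The 2 day 0 arrays labelled Erg differed from each other with an SD of 0.611 over all probe sets, against 0.233 to 0.335 in the other groups. The arrays labelled Erg did not read higher for Erg: the brighter Erg probe set (1440244_at) read 7.30 and 7.61 in the day 0 controls against 6.79 and 5.59 in the day 0 arrays labelled Erg, and 8.43 and 8.50 against 8.53 and 7.68 on day 1. Whether these probes read the plasmid's transcript is not known, and these groups are called by their labels throughout. Mesenchymal markers such as Col1a1 read bright, with a summed log2 level of 16.3 to 17.2 in the 8 arrays. Of the leukocyte markers the defining gene Ptprc, and Itgam as well, lay below the first quartile of probe sets in all 8 arrays. Cd14, Cd68 and Lyz2, however, read well above it on day 0. These were lower in the day 1 controls, making 3 of 7 measured called lower there. The summed level of the 7 was 11.2 to 11.3 in the day 0 controls and 10.7 to 11.3 in the day 0 arrays labelled Erg. On day 1 it was 9.68 to 9.82 in the controls and 9.66 to 9.87 in the arrays labelled Erg. Cd14, the brightest of the 7, weighs most in this sum, with control means of 10.73 on day 0 and 8.41 on day 1. Cd3e hardly moved, with control means of 7.11 and 7.09. Of 8 endothelial and 8 epithelial markers 1 each was called lower between the control days, and 2 and 1 of them lay below the first quartile in all 8 arrays. Pecam1 and Cdh5 did so in 4 and 7 arrays, and Kdr, Esam, Tek and Epcam in 0. Of 12 cartilage markers 7 read higher on control day 1, with 1 called (Sox9), and 2 lay below the first quartile in all 8 arrays. Col2a1 read 9.01 and 9.10 in the day 0 arrays labelled Erg and 10.25 and 9.18 in those of day 1, against 9.02 and 8.99 and then 10.21 and 9.21 in the controls. In bulk RNA, fewer cells of a type and less RNA per cell cannot be told apart, and the part of such cells in the results below was not tested.

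Over the first day of culture the inhibitor Smad6 and the brightest probe set of the receptor Bmpr2 rose about 2-fold. The other Bmpr2 probe sets differed by less and were not called (0.31 and 0.07 in the controls, 0.31 and 0.47 in the arrays labelled Erg). By its brightest probe set Id4 rose by 1.78 in the arrays labelled Erg, where it was called, and by 1.38 in the controls. The second Id4 probe set, 1423260_at, gave 1.27 and 0.58 and was not called. Id1 fell in both, by less than Id4 rose (-0.47 in the controls, where it was called, and -0.36 in the arrays labelled Erg). The difference between the 2 changes was 0.40 (SE 0.55) for Id4 and 0.12 (SE 0.18) for Id1, and neither was called. Between the control days 4 of the 25 probe sets were called, 3 higher and 1 lower, which is 2 genes higher (Smad6 and Bmpr2) and 1 lower (Id1) by the brightest probe set of each gene. Over the whole array 19.8% of probe sets were called in that comparison, 11.8% higher and 7.97% lower, so the share of members called was near the background. In the arrays labelled Erg 3 of 25 were called between the days, all higher (Id4, Smad6 and Bmpr2), against a background of 6.99%, 5.32% higher and 1.67% lower. The median difference of the 10 genes was 0.44 in the controls and 0.63 in the arrays labelled Erg, beside -0.15 and -0.07 over all symbols. Over the 25 probe sets the medians were smaller, 0.18 and 0.31, beside -0.11 and -0.06 over all probe sets. Smad6 and Bmpr2 were the 2 probe sets called in both comparisons, in the same direction. In the array's annotation the called probe sets of Id1 (1425895_a_at), Id4 (1423259_at) and Smad6 (1422771_at) carry a cross-hybridisation note, a warning that probes may match other transcripts. So do 1416630_at of Id3, 1423753_at of Bambi and 1425491_at of Bmpr1a, among others. The called 1434310_at of Bmpr2 does not, nor does 1438441_at of Id4, which is aligned to the strand opposite to the gene. Whether other transcripts add to these values was not tested. The comparisons share no array but share 1 estimate of the spread, in which the day 0 arrays labelled Erg weigh heavily.

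**Figure D1:**
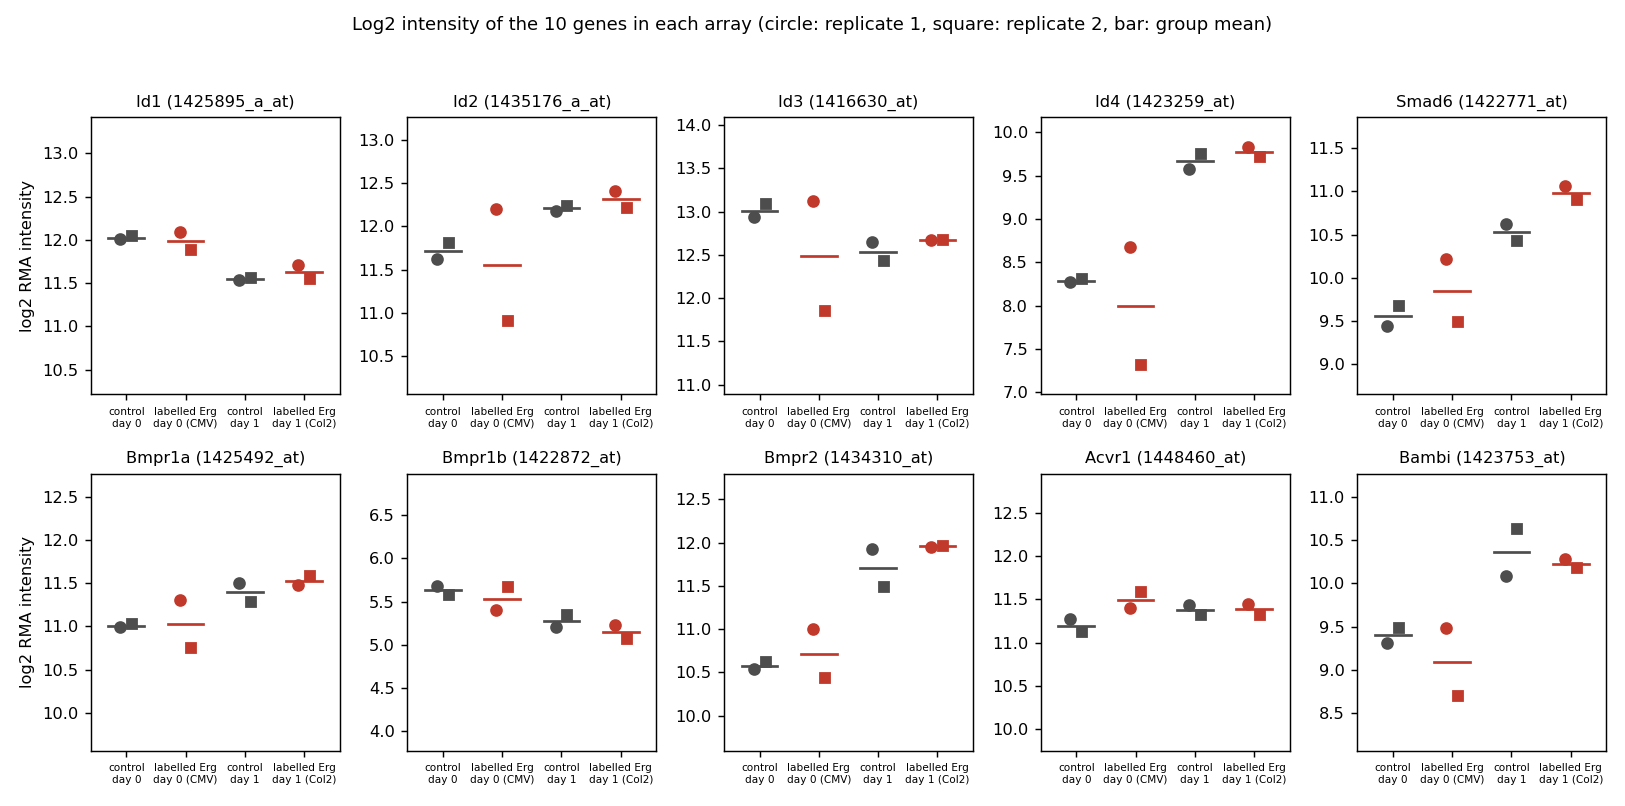
Log2 RMA intensity of the brightest probe set of each of the 10 genes in the 8 arrays, with a y axis of the same span in each panel; circles are replicate 1, squares replicate 2, bars group means, grey controls and red arrays labelled Erg. Smad6, Bmpr2, Bambi and Id4 sit higher in all day 1 arrays than in all day 0 arrays. The day 0 square labelled Erg lies lowest of the day 0 arrays for Id1, Id2, Id3, Id4, Bmpr1a, Bmpr2 and Bambi.

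The promoters of the 3 genes called in the arrays labelled Erg, and of Id3 as an Id gene that was not called, are printed below to show what sequence stands before the start of the genes that moved and of one that did not pass the test. Each is the 250 bases before the start of the gene, 5′ to 3′ on the gene's strand, from RefSeq on GRCm38.p6. Capitals mark GGCGCC, a GC-rich element that Smad1 is known to bind, and CAGAC (or GTCTG on the other strand), the Smad-binding element. Id4 lies at chr13:48260866-48261115 (+ strand), Smad6 at chr9:64022060-64022309 (− strand), Bmpr2 at chr1:59764029-59764278 (+ strand) and Id3 at chr4:136143572-136143821 (+ strand).
Id4: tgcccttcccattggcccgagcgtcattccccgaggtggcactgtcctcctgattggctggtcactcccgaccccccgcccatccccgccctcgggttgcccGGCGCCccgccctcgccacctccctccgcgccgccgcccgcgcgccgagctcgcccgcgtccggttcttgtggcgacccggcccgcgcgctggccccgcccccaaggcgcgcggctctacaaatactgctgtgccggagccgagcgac
Smad6: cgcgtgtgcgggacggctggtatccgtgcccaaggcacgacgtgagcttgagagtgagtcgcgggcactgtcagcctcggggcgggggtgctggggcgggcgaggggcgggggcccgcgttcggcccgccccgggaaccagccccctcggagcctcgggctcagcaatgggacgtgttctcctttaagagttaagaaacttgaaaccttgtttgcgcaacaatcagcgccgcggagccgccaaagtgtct
Bmpr2: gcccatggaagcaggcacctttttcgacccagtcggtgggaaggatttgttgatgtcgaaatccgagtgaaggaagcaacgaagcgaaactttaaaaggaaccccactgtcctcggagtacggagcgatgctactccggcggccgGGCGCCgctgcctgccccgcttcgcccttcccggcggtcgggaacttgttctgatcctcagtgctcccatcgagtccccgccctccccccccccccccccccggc
Id3: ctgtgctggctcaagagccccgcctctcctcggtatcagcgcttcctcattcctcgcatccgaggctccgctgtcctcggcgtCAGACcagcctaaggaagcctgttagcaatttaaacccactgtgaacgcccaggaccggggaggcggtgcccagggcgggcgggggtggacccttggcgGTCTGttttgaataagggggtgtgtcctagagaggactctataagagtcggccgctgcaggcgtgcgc

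Id4 holds 1 GGCGCC, 148 bases before the start, and Bmpr2 holds 1, 105 bases before it. Smad6 holds neither element, and Id3 holds CAGAC on one strand 167 bases before the start and on the other strand 68 bases before it. The RefSeq table held 8 of the 10 genes, not Id1 and Bambi, in 10 windows because Bmpr1b has 3, and windows were searched on both strands from 250 bases before the start through the first 50 bases of the gene. GGCGCC was in the windows of 4 of the 8 genes (Id2, Id4, Bmpr1a and Bmpr2) and in 11.9% of all 32851 windows. CAGAC was in those of 2 genes, Id3 and Bmpr1b, and in 49.6% of all windows. The ETS core CCGGAA was in those of 2, Acvr1 and Bmpr1b, and in 14.9% of all. The E-box CANNTG, which bHLH proteins bind, was in those of 3, Id2, Smad6 and Bmpr1b, and in 72.3% of all. Longer or related forms were searched as well: CAGACA, which contains CAGAC, was in 1 gene and 21.0% of windows, CCGGAAGT, which contains CCGGAA, in 0 and 3.89%, GGCGCCAG, which contains GGCGCC, in 0 and 1.65%, CACGTG, a form of CANNTG, in 0 and 7.15%, and TATAAA in 1 and 13.6%. A match describes these letters, and binding was not measured.

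Among the targets, Id1 was the one called lower. Id1 (1425895_a_at, chromosome 2, 152561991 to 152563142, + strand, in the array's own annotation, whose build is not stated) read 12.01 and 12.04 in the day 0 controls and 11.54 and 11.57 in the day 1 controls, replicate 1 first here and below. In the arrays labelled Erg it read 12.09 and 11.88 at day 0 and 11.71 and 11.55 a day later. All 4 day 1 arrays lay below all 4 day 0 arrays. Replicates stood close together in the controls and farther apart in the arrays labelled Erg. The control difference was -0.47 (SE 0.13, limma adjusted p = 0.0466), or 1.39-fold lower, and in the arrays labelled Erg it was -0.36 (95% interval -0.67 to -0.05, adjusted p = 0.153). The control call was lost in 13 of 18 other settings, among them leaving out any 1 of the control or day 1 arrays, where the adjusted p ranged from 0.0902 to 0.203, while the direction was kept in all 18, with values from -0.50 to -0.38.

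Id4 moved the other way. Id4 (1423259_at, chromosome 13, 48356456 to 48360229, + strand) read 8.27 and 8.31 in the day 0 controls and 9.58 and 9.75 in the day 1 controls. It read 8.68 and 7.31 in the day 0 arrays labelled Erg and 9.83 and 9.71 in those of day 1. Every day 1 array was above every day 0 array, and the spread lay almost wholly between the 2 day 0 arrays labelled Erg. Id4 rose by 1.78 (SE 0.39, adjusted p = 0.0453), or 3.43-fold, in the arrays labelled Erg. The control difference of 1.38 (SE 0.39, adjusted p = 0.0506) did not pass, although the 2 replicates of each control group differed by far less than the days did. It passed in 7 of 18 other settings, among them those without 1 or the other day 0 array labelled Erg. The array left alone in its group adds nothing to the spread. For a control difference, here and below, these 2 settings are therefore the same result and not 2 checks. The call in the arrays labelled Erg was lost in 11 of 18, with values from 1.10 to 2.46, the lowest without day 0 replicate 2. The probe set has 1 alignment but lists LOC100045546 beside Id4, as does the second Id4 probe set, 1423260_at. Neither can tell the 2 symbols apart.

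The other Id4 probe sets did not give 1 answer. Probe set 1423260_at, aligned to the same interval, differed by 0.58 (adjusted p = 0.272) in the controls and by 1.27 (adjusted p = 0.0845) in the arrays labelled Erg. The third, 1438441_at, is aligned to the strand opposite to the gene, so it does not read Id4 messenger RNA by this alignment. It read 4.60 and 4.76 in the day 0 controls and 5.17 and 5.46 in the day 1 controls, and 4.70 and 5.01 against 5.44 and 5.45 in the arrays labelled Erg. Its control difference was 0.63 (SE 0.16, adjusted p = 0.0394), the third of the 3 higher calls in the controls, at a level below the first quartile of probe sets in 5 of 8 arrays. It was lost in 8 of 17 other settings, including without any 1 of the control or day 1 arrays (adjusted p from 0.0614 to 0.174).

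With all 8 arrays, Id2 and Id3 did not pass in either day comparison. Id2 (1435176_a_at, chromosome 12, 25778723 to 25779703, − strand), read 11.63 and 11.81 in the day 0 controls and 12.18 and 12.24 in the day 1 controls. In the arrays labelled Erg it read 12.20 and 10.91 at day 0 and 12.41 and 12.22 a day later. The day 1 arrays lay above the day 0 arrays of their own kind, but day 0 replicate 1 labelled Erg had already the level of day 1. The differences were 0.49 (95% interval -0.40 to 1.38, adjusted p = 0.366) in the controls and 0.76 (-0.13 to 1.65, adjusted p = 0.258) in the arrays labelled Erg. Without either day 0 array labelled Erg the control difference passed (adjusted p = 0.0253). The difference in the arrays labelled Erg was 1.40 without their day 0 replicate 1 and 0.12 without replicate 2. With 1 array left in the day 0 group its spread is not measured, so these values are given without a test. Its other probe sets differed by 0.14 (1422537_a_at) and 0.55 (1453596_at) in the controls, and by 0.89 and 0.50 in the arrays labelled Erg, with 0 called.

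Id3 (1416630_at, chromosome 4, 135699667 to 135701302, + strand), read 12.93 and 13.09 in the day 0 controls and 12.65 and 12.43 in the day 1 controls. In the arrays labelled Erg it read 13.13 and 11.85 at day 0 and 12.67 and 12.68 a day later. The control groups did not overlap, with day 1 lower, while the 2 day 0 arrays labelled Erg lay on either side of those of day 1. The differences were -0.47 (SE 0.37, adjusted p = 0.378) and 0.18 (SE 0.37, adjusted p = 0.794). The Id1 and Id3 differences in the controls were alike in size, and the SE of Id3, which pools the day 0 arrays labelled Erg, was larger. Without either of these arrays the control difference of Id3 passed, with an adjusted p of 0.0276. The difference in the arrays labelled Erg was 0.82 without their day 0 replicate 1 and -0.46 without replicate 2, again given without a test.

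Smad6, the inhibitory Smad that is itself a BMP target, rose in both comparisons. Its single probe set (1422771_at, chromosome 9, 63800882 to 63868831, − strand) read 9.44 and 9.67 in the day 0 controls and 10.62 and 10.43 in the day 1 controls. It read 10.21 and 9.49 in the day 0 arrays labelled Erg and 11.06 and 10.90 in those of day 1. The days did not overlap, and the 2 day 1 arrays labelled Erg were the highest of the 8. The difference was 0.97 (SE 0.24, adjusted p = 0.0358), or 1.95-fold, in the controls and 1.13 (SE 0.24, adjusted p = 0.0430), or 2.18-fold, in the arrays labelled Erg. The calls were lost in 9 and 12 of 18 other settings. Among these were the fits without any 1 of the control arrays of either day or of the day 1 arrays labelled Erg. Without day 0 replicate 2 the difference in the arrays labelled Erg was 0.77.

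Of the receptors, Bmpr2 alone was called. Its brightest probe set (1434310_at, chromosome 1, 59931877 to 59934460, + strand) read 10.53 and 10.62 in the day 0 controls and 11.93 and 11.48 in the day 1 controls. It read 11.01 and 10.43 in the day 0 arrays labelled Erg and 11.95 and 11.96 in those of day 1. All day 1 arrays lay above all day 0 arrays. Bmpr2 rose by 1.13 (SE 0.23, adjusted p = 0.0193), or 2.19-fold, in the controls and by 1.24 (SE 0.23, adjusted p = 0.0280), or 2.36-fold, in the arrays labelled Erg. These calls were lost in 4 and 6 of 18 other settings, the controls' without control day 0 replicate 1 (0.101), control day 0 replicate 2 (0.113) or control day 1 replicate 1 (0.0838). The calls in the arrays labelled Erg were lost without either day 0 control (0.0769) or without day 1 replicate 1 (0.140) or 2 (0.196).

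The other Bmpr2 probe sets differed less. Probe set 1419616_at, whose alignment spans the upstream part of the locus (59821122 to 59927715), differed by 0.31 in both comparisons (SE 0.20), and 1441652_at, aligned 3′ of the brightest one, by 0.07 and 0.47 (SE 0.17). The 3 probe sets therefore disagree on size, and the call rests on 1 of them. The deposited table has no probe positions within transcripts, and whether these probe sets read different transcript ends was not tested.

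The type I receptors did not pass. For Bmpr1a the brightest of 6 probe sets (1425492_at) read 10.99 and 11.03 in the day 0 controls, then 11.51 and 11.28 in those of day 1, 11.31 and 10.75 in the day 0 arrays labelled Erg and 11.48 and 11.58 in those of day 1. Its differences were 0.38 (adjusted p = 0.202) and 0.50 (adjusted p = 0.179), and over the 6 probe sets the control differences ran from -0.31 (1425491_at) to 0.38. The first 5 are aligned to the same interval of the − strand yet differ in sign, while 1445413_at lies outside it on the opposite strand. Bmpr1b, the type I receptor best known from limb cartilage, was dim: 1437312_at and 1443720_s_at lay below the first quartile in all 8 arrays, and the brightest, 1422872_at, in 3 of them. The latter differed by -0.36 (adjusted p = 0.119) and -0.39 (adjusted p = 0.156), and all 3 were lower on day 1 in both comparisons. Acvr1 (1448460_at) differed by 0.18 (95% interval -0.14 to 0.50) in the controls and -0.11 (-0.43 to 0.21) in the arrays labelled Erg. Its second probe set, 1416786_at, gave 0.22 and -0.21. Its probe set on the opposite strand, 1416787_at, differed by -0.40 (adjusted p = 0.100) and 0.03, in a direction unlike that of 1448460_at in each case.

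Bambi, a receptor-like protein without a kinase that BMP is known to induce, read 9.32 and 9.49 in the day 0 controls and 10.09 and 10.63 in the day 1 controls (1423753_at). In the arrays labelled Erg it read 9.48 and 8.70 at day 0 and 10.28 and 10.18 a day later. The days did not overlap in either kind of array. The differences of 0.96 (SE 0.29, adjusted p = 0.0579) and 1.14 (SE 0.29, adjusted p = 0.0647) were close to those of Smad6 in size and did not pass. They passed in 5 and 2 of 18 other settings.

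**Figure D2:**
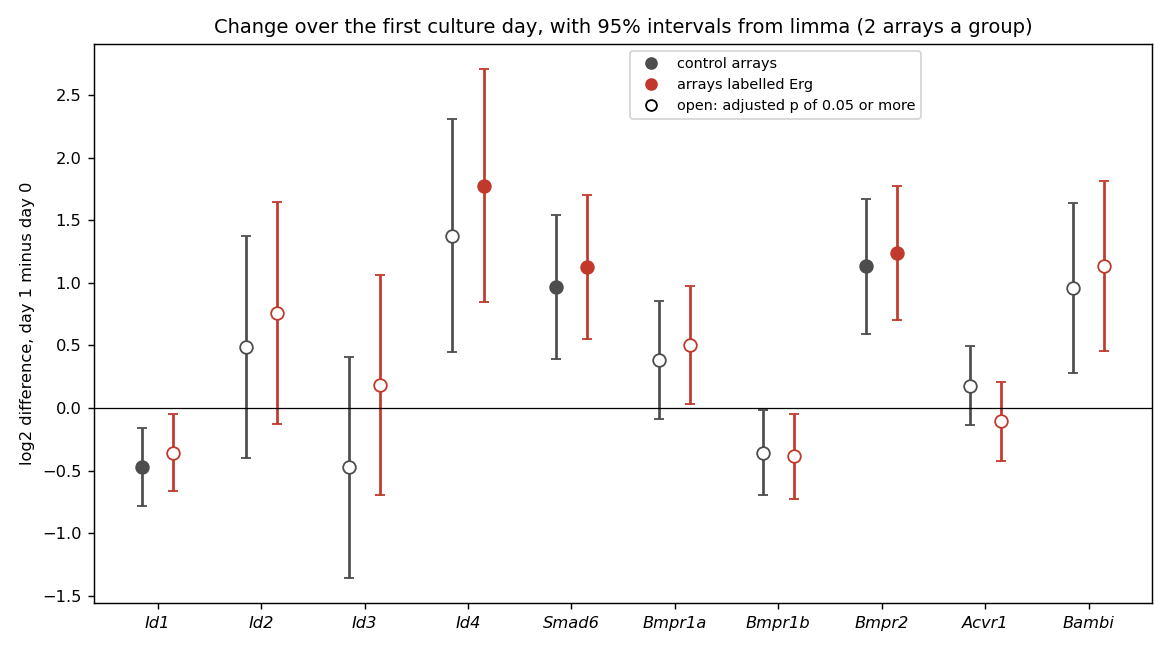
Log2 difference between day 1 and day 0 for the brightest probe set of each gene, in the controls (grey) and in the arrays labelled Erg (red), with 95% intervals from limma; filled points passed an adjusted p of 0.05. Id4, Smad6, Bmpr2 and Bambi lie near or above 1 in both kinds of array, Id1 and Bmpr1b lie below 0 in both, and Id3 and Acvr1 differ in sign between them.

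**Figure D3:**
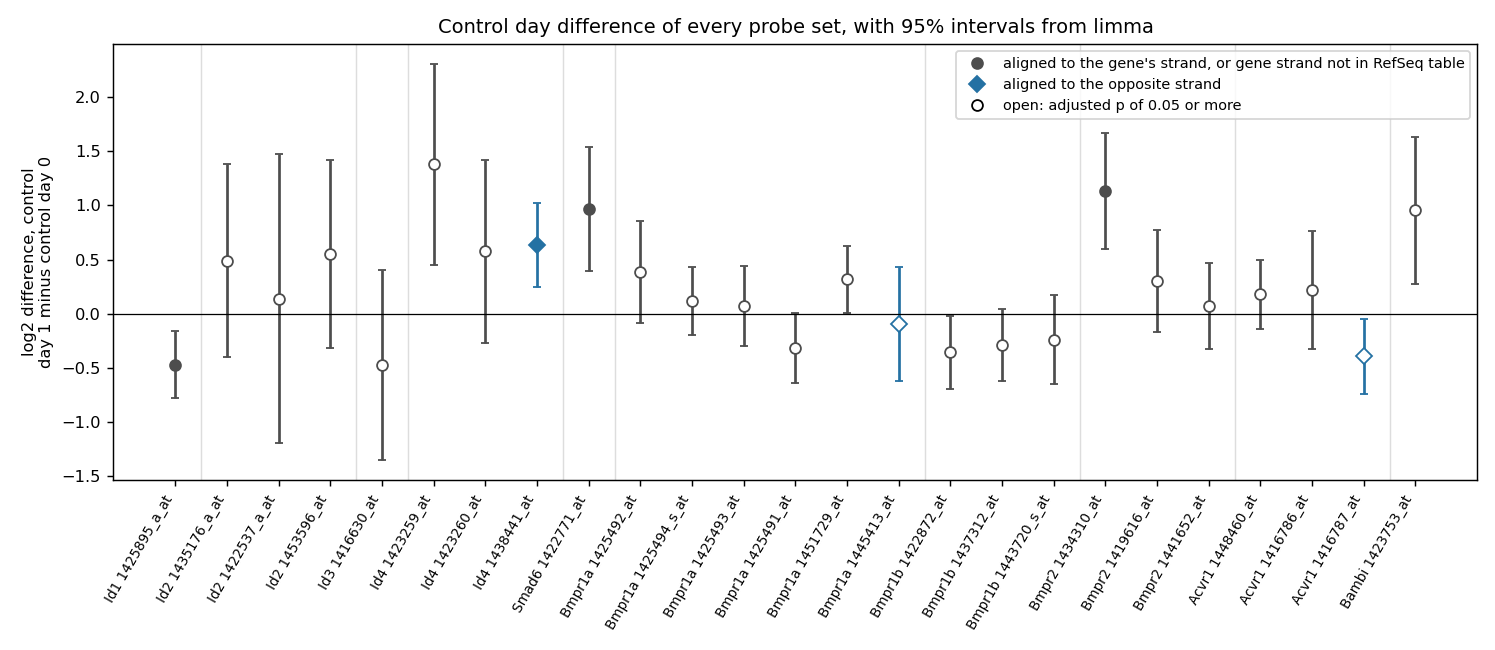
Control difference between the days (log2, day 1 minus day 0) of all 25 probe sets by gene, with 95% intervals from limma; diamonds are the 3 probe sets aligned to the strand opposite to the gene, and filled symbols passed an adjusted p of 0.05. Probe sets of Bmpr1a and Bmpr2 spread from -0.31 to 0.38 and from 0.07 to 1.13.

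The authors' deposited table holds q-values from their own contrasts, and by these more members passed, as did more of all probe sets. In the authors' deposited table, 10 of the 25 probe sets had a q-value under 0.05 between the control days, and 6 between the days in the arrays labelled Erg. Of all 45037 probe sets 17667 and 5641 did, a share near that of the members for the controls and lower for the arrays labelled Erg. Bambi was among the members that passed, with a q-value of 0.0203 and 0.0328 in the authors' deposited table, as was Id4 (1423259_at), with 0.0177 and 0.0230. For either comparison of Erg with control and for their difference, the authors' deposited table gave 0 of all 45037 probe sets, and so 0 members, a q-value under 0.05.

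Against the controls of the same day, 0 of the 25 probe sets were called in the arrays labelled Erg on day 0, on day 1, averaged over both days or for the difference between the days, where over the whole array 0% were called in each. At an unadjusted p under 0.05 there were 1, 0, 1 and 0 of the 25 probe sets, against 5.43%, 1.37%, 3.51% and 2.44% of all. The 1 was the same Bmpr1a probe set both times, 1425491_at, with -0.34 on day 0 and -0.25 averaged (adjusted p = 0.802 and 0.974). It read 9.58 and 9.75 in the day 0 controls against 9.42 and 9.22, and 9.28 and 9.42 in the day 1 controls against 9.22 and 9.17, so the labelled arrays lay below the controls on both days. The brighter 1425492_at of the same gene differed by 0.02 and 0.14.

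On day 0 the 2 groups did not overlap for 4 of the 25 probe sets. Of these 2 were above, 1448460_at of Acvr1 and 1419616_at of Bmpr2, where 13.6% of all probe sets were. The other 2 were below, 1425491_at of Bmpr1a and 1416787_at of Acvr1, where 17.6% were. On day 1 the arrays labelled Erg were above for 8 of the 25 probe sets (19.0% of all) and below for 2 (12.6% of all). Smad6 was among the 8, with the largest unsigned difference of the 25 on day 1, 0.45 (SE 0.24, 95% interval -0.12 to 1.03, adjusted p = 1), and its average over both days was 0.37 (SE 0.17, interval -0.03 to 0.78, unadjusted p = 0.0660). For Acvr1 1416787_at, on the opposite strand, the arrays labelled Erg were all below the controls on day 0 and all above them on day 1, and the difference between the days was 0.42 (SE 0.21, adjusted p = 0.974). For the 4 Id genes the day 1 intervals were -0.23 to 0.39 (Id1), -0.79 to 0.99 (Id2), -0.75 to 1.01 (Id3) and -0.82 to 1.04 (Id4), so a level 2-fold higher lies inside those of Id3 and Id4 and close to the edge for Id2.

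What the day 0 comparison gave depended on which array labelled Erg was used. Replicate 2 read lower than replicate 1 by 1.29 for Id2, 1.28 for Id3 and 1.37 for Id4, but by 0.21 for Id1. It was also lower by 0.72 for Smad6, 0.56 for Bmpr1a, 0.57 for Bmpr2 and 0.78 for Bambi, and higher by 0.26 for Bmpr1b and 0.19 for Acvr1. Thus 20 of 25 probe sets read lower in replicate 2, where 55.7% of all probe sets did, and 6 read lower by 1 or more, where 2.97% did, all of them of Id2, Id3 and Id4. Replicate 1 lay above the control mean for all 4 Id genes and Smad6, replicate 2 below it.

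Left with replicate 2 alone, 5 members were called lower than the day 0 controls, where 7.54% of all probe sets were called and 3.41% were called lower: Id2 by -0.81 (1435176_a_at, adjusted p = 0.0371) and -1.46 (1422537_a_at, 0.0143), Id3 by -1.16 (0.0159), and Id4 by -0.97 (1423259_at, 0.0219) and -1.0 (1423260_at, 0.0245). The difference between the days then passed for 3 of them, Id2 1422537_a_at (1.74), Id3 (1.30) and Id4 1423260_at (1.30), where 0.790% of all probe sets passed, 0.697% with a higher value. Left with replicate 1 alone, 0 members and 0 of all probe sets were called, and 21 of 25 members were above the controls, against 6 of 25 with replicate 2 alone. In both cases the lone array is assumed to vary like the other groups, which the 2 day 0 arrays labelled Erg did not. They differed with an SD of 0.611 over all probe sets, against 0.233 to 0.335 in the other groups. The adjusted p of these fits therefore leaves out the spread of this group. The 5 and 3 calls rest on replicate 2 alone and follow its gap to replicate 1. No difference between Erg and control is concluded from them.

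**Figure D4:**
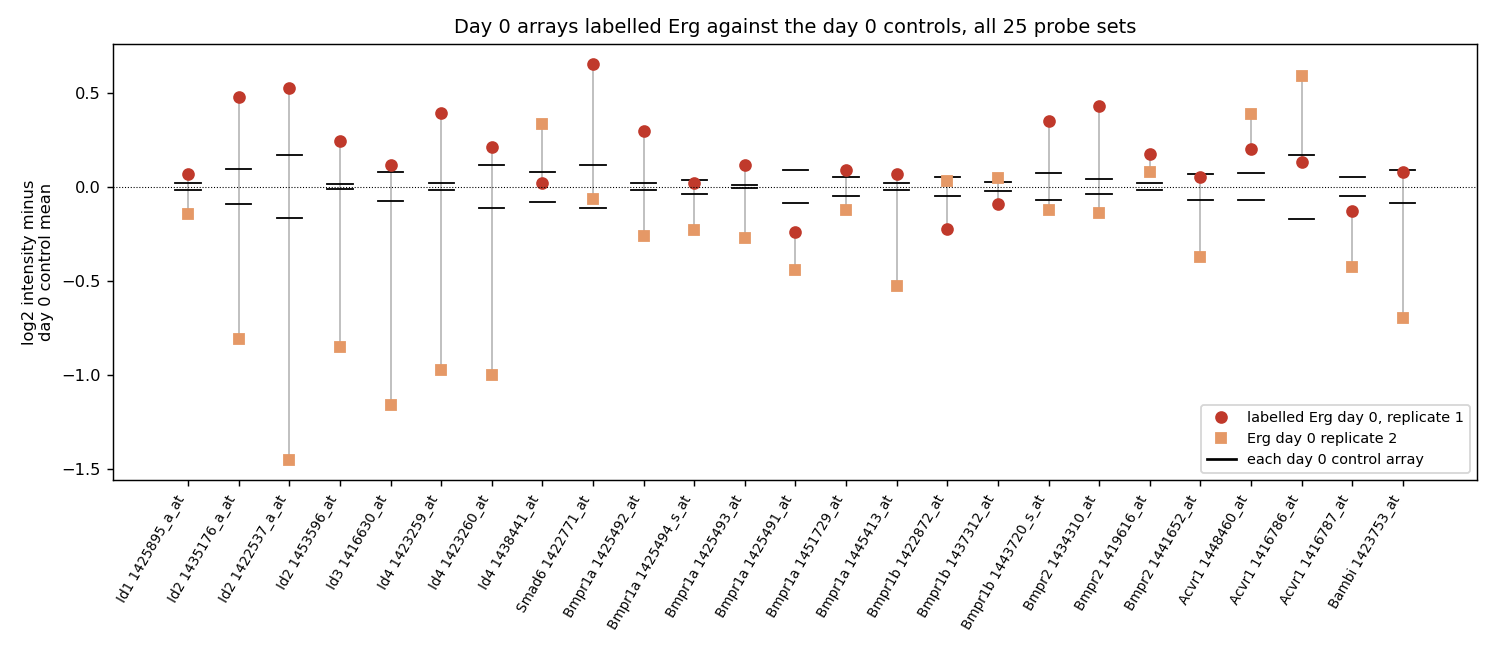
Log2 intensity of the 2 day 0 arrays labelled Erg minus the mean of the day 0 controls, for all 25 probe sets; circles are replicate 1, squares replicate 2, and black dashes are the 2 control arrays. The squares of Id2, Id3 and Id4, other than the opposite-strand Id4 probe set, lie 0.81 or more below the control mean, and the circles of the same probe sets lie above it.

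The rest of the pathway was followed over the control days in lists of genes, each gene by its brightest probe set. Over all 20680 symbols 11.0% were called higher and 9.26% lower in that comparison, and the counts below were not tested against these shares. Among 9 other receptors of the family 1 was called higher, Tgfbr2, the type II receptor for TGF-beta, by 1.31 (adjusted p = 0.0133), and the median was 0.25. Of 5 co-receptors 3 read higher on day 1, 2 were called higher and 0 were called lower. The 2 were Neo1, by 1.20, and Rgmb, by 0.85, both part of the repulsive guidance molecule system. Of 20 Smads and regulators 12 read higher on day 1, 3 were called higher and 1 lower, and the median was 0.07. Smad1, the transducer of BMP signals, rose by 0.76 and Lemd3, an inner nuclear membrane protein that binds Smads, by 0.68. Smad3, a transducer of TGF-beta signals, rose by 0.62, whereas the repressor Skil fell by 0.77. All symbols together had a median of -0.15.

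Of 12 genes in the list of BMP and GDF ligands 1 was called lower, a share near that of all symbols, and the median was -0.34. The list holds Bmp1, a metalloproteinase despite its name, which differed by 0.00 and was the only one not below 0. Bmp5 fell by 1.28 (adjusted p = 0.0137), from 6.34 and 6.31 to 5.16 and 4.94, below the first quartile of probe sets on day 1. Bmp4 read 12.10 and 12.33 in the day 0 controls and 10.45 and 10.17 in the day 1 controls, a difference of -1.91 (SE 0.55, adjusted p = 0.0522). In the day 0 arrays labelled Erg Bmp4 read 12.73 and 11.04, a gap like that of Id2, Id3 and Id4.

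Secreted antagonists were split. Of 17, 6 read higher on day 1, 2 were called higher and 4 lower, and the median was -0.25. Twsg1 rose by 1.34 and Grem1 by 1.01, while Sostdc1, which was below the first quartile in 4 arrays, fell by 0.81, and Dand5 by 0.82. Fst, named after its values were seen, fell by 1.62. Of 19 other genes known to respond to BMP 9 read higher on day 1, 5 were called higher and 1 lower, and the median was -0.10. Zfp423, a cofactor of BMP-activated Smads, read 7.73 and 7.71 in the day 0 controls and 10.31 and 10.13 in the day 1 controls. It rose by 2.50 (SE 0.27, adjusted p = 0.00426). Runx2, the master factor of bone and of hypertrophic cartilage, rose by 1.48 and Gata2 by 1.13, while Junb, an immediate early gene, fell by 1.83. The other 2 called higher, named after their values were seen, were Hey1 by 0.97 and Msx1 by 0.64. Smad7, the inhibitory Smad beside Smad6, differed by -0.10 (SE 0.24, adjusted p = 0.780).

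Of 23 bHLH partners and competitors of Id proteins 4 read higher on day 1, 3 were called higher and 2 lower, and the median was -0.25. The E protein Tcf12 rose by 0.91, Hey1 by 0.97 and, named after its values were seen, the E protein Tcf3 by 0.78, while Hand2, below the first quartile in 6 arrays, fell by 0.67. In the arrays labelled Erg 6.19% of all symbols were called higher and 1.88% lower between the days. There passed 1 higher among the other receptors, 1 among the co-receptors, 1 among the Smads and regulators, 0 among the ligands, 1 among the antagonists, 4 higher and 1 lower among the BMP-responsive genes and 2 higher among the bHLH genes. Against the controls of the same day 0 genes of these lists passed.

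**Figure D5:**
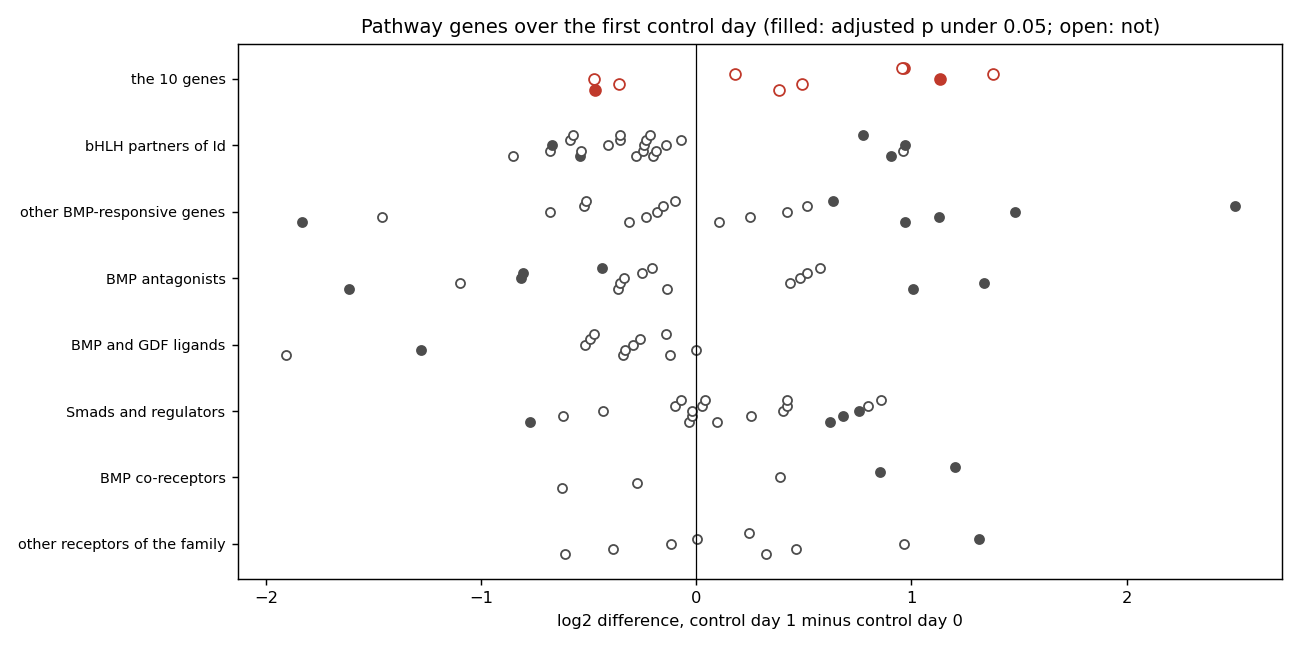
Log2 difference between the control days for each gene of 7 pathway lists (grey) and for the 10 genes described here (red), 1 point a gene by its brightest probe set; filled points passed an adjusted p of 0.05. Of the 12 genes in the ligand list 11 lie below 0, and Zfp423 is farthest to the right, at 2.50.

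The genes whose pattern over the 8 arrays was most like that of a member were ranked by Pearson's r among symbols with an SD of at least 0.3. These coefficients mostly restate the split by day and the dip of 1 array, and they describe 8 arrays in 4 groups. Nearest to Id1 were Fam83d (0.996), Cenpm (0.991) and Zfp238 (0.988). Id2 stood nearest to Slc38a2 (0.992), 6230424C14Rik (0.989) and Tmtc1 (0.987), and Id3 to Pdia6 (0.994), Pdia4 (0.994) and Rpn1 (0.992). Id4 was most like Pcdhb11 (0.995), Lrrc17 (0.994) and Col23a1 (0.993), and Smad6 like Pigt (0.989), Cd38 (0.988) and Smap2 (0.988). The 5 members thus had different nearest genes.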

How the data were processed

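Messenger RNA was measured on 8 arrays. The authors deposited RMA intensities on a linear scale, after background correction, quantile normalization and median polish, in a workbook and a series table that differ by at most 4.99e-10 (relative). The notes in the workbook name Partek GS 6.6 for RMA, the series text dChip (2005), and it is unsettled which of them made these values. The deposited table also holds the authors' q-values from their own limma contrasts, used here for comparison alone. Intensities were transformed to log2 and group means fitted with limma 3.58.1 (lmFit and eBayes, R 4.3.3, data.table version 1.17.8) over all 45037 probe sets and 8 arrays, with 4 residual and 2.78 prior degrees of freedom, without a filter. P-values were adjusted by Benjamini-Hochberg over all probe sets, and 95% intervals are limma's. The script was tested on simulated data (seed 1). The brightest probe set by mean stood for a gene. Raw images and detection calls were not used here, so signal over background was not measured. The 10 genes, the 12 gene and marker lists (145 of 151 symbols measured; not measured were Hjv, Smad9, Bmp3, Gdf6, Gdf7 and Cd79a), the tests and the naming rule were chosen with earlier results of these data known. The rule named every member, described per array those called and Id1 to Id4 and Smad6, took the 3 most alike symbols, and up to 4 genes of a list by smallest p. Alternatives were the values of the series matrix, an intensity trend, a dim-probe filter, 1 probe set or the mean per symbol, replicate blocks, the 4 arrays of a comparison alone, cyclic loess, a second quantile normalization, array weights and each array left out, and a block with the day 0 numbers crossed was added after the data were seen. Some genes counted in the lists are not reported by name here. Promoters came from RefSeq (GRCm38.p6). Figures used Python 3.11.15 and matplotlib 3.10.9.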

Additional observations from a re-analysis of the deposited data

How the results depend on the processing

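With 2 arrays a group, calls near the threshold depend on single arrays. Of the values called with all 8 arrays, 0 changed direction in the other settings. For Erg against control and for its difference between the days 0 were called with all 8 arrays, so this could not be asked there. Of 25 probe sets, 4 were called between the control days and 3 between the days in the arrays labelled Erg. Leaving out each array in turn gave 0 to 10 and 0 to 13, with the high counts without a day 0 array labelled Erg, and 0 to 5 for Erg against control on day 0 and 0 to 3 for the difference between the days, both highest without day 0 replicate 1 labelled Erg. Cyclic loess and a second quantile normalization each gave 2 and 1, and the 4 arrays of each comparison alone gave 8 and 0. The labels do not say that replicate numbers pair the arrays, and same-numbered arrays of control and Erg deviated with a correlation of -0.61 on day 0, as crossed numbers could give, and 0.32 on day 1, so pairing was not settled. A replicate block gave 3 and 1, a replicate block within each day 0 and 0, and that block with the day 0 numbers crossed, added after the data were seen, 4 and 5. Array weights gave 6 and 2, an intensity trend 4 and 3, and the filter on dim probe sets, which left 22, gave 3 and 3. Of 447 member values between the control days, 34 lost and 22 gained a call, and of 447 in the arrays labelled Erg, 29 lost and 15 gained one. Values without a call changed sign in 9 of 447 cases between the control days and 10 of 447 in the arrays labelled Erg. They did so in 27 of 447 cases for Erg against control on day 0 and 19 of 447 on day 1. The median of all probe sets between the control days was -0.11 as deposited and -0.01 after cyclic loess. The cause of these shifts was not tested.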
